A study of Mus musculus with 3 samples.

Results

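The 6 inflammatory CC chemokine genes Ccl2, Ccl7, Ccl12, Ccl3, Ccl4 and Ccl24 were followed, as a list of symbols, among the 28692 genes of a single-cell RNA dataset of liver macrophages. All 6 were present in the gene list, and all 6 had UMIs (unique molecular identifiers, each standing for 1 captured transcript) in every library. Live cells with high F4/80 and intermediate CD11b were sorted from the nonparenchymal fraction of perfused, collagenase-digested livers of male mice aged 8 weeks, the gate of Kupffer cells, the resident macrophages of the liver. The strain was not given in the sources used here. The 3 libraries came from 1 mouse each. One mouse ate normal chow (day 0), 1 was fed the liquid Lieber-DeCarli formula containing 5% ethanol for 3 days, and 1 was fed it for 10 days. A liquid diet without ethanol was not among the groups, so ethanol, the liquid diet, the animal and the library cannot be told apart, and no comparison between diets has a replicate check. The intervals given below are 95% intervals of counting error only. Those of levels and ratios treat UMIs as separate draws and leave out the spread between cells.

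Chemokines are small secreted proteins that draw leukocytes along a gradient by binding G protein-coupled receptors. Ccl2, Ccl7 and Ccl12 are the monocyte chemoattractants of the mouse and act on Ccr2, which brings monocytes into inflamed tissue. Ccl3 and Ccl4 are the macrophage inflammatory proteins, which attract monocytes and T cells, and Ccl3 binds Ccr1. Ccl24 is an eotaxin, a ligand of the eosinophil receptor Ccr3, and is known as a product of alternatively activated macrophages. Kupffer cells are a known source of Ccl2 in the injured liver.

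Of the 6 genes, 5 lie on mouse chromosome 11 and 1 on chromosome 5 (GRCm38, GENCODE vM21). Ccl2 (ENSMUSG00000035385, chr11:82035571-82037453, plus strand), Ccl7 (ENSMUSG00000035373, chr11:82045712-82047525, plus strand) and Ccl12 (ENSMUSG00000035352, chr11:82101845-82103400, plus strand) lie within 67.8 kb. Ccl3 (ENSMUSG00000000982, chr11:83647844-83649355, minus strand) and Ccl4 (ENSMUSG00000018930, chr11:83662584-83664683, plus strand) form a second cluster of 16.8 kb, 1.54 Mb further along. Ccl24 (ENSMUSG00000004814, chr5:135569937-135573049, minus strand) neighbours Ccl26. Gm17268, a predicted gene on the minus strand, overlaps Ccl2 and had 0 UMIs in the Kupffer-like cells of all 3 libraries.

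The promoter table used here (RefSeq, GRCm38.p6, 250 bases before to 50 bases after the start) holds 2 of the 6 genes, Ccl12 and Ccl3. They are shown because they belong to the 2 chromosome 11 clusters and their levels differed from chow in opposite directions below. Capitals mark matches to any of 6 motifs searched on both strands.

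Ccl12 (chr11:82101595-82101894, plus strand): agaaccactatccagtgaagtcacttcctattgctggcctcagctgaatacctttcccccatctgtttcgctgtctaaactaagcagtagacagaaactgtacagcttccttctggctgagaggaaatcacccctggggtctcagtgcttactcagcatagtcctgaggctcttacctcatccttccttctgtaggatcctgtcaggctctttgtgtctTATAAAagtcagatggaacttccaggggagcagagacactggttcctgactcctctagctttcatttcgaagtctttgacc

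Ccl3 (chr11:83649329-83649628, minus strand): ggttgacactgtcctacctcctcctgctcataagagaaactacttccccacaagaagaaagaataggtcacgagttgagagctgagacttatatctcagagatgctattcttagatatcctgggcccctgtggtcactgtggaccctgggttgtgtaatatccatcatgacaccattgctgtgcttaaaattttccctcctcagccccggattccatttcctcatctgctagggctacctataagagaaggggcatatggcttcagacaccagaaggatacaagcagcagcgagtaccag

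The Ccl12 window held 1 match, a TATAAA box from position -31 to -26 before the start, and a TATAAA was found in 13.6% of the 32851 promoters of the table. The Ccl3 window held none of the searched letters, which were those of the TATAAA box, the AP-1 motif TGANTCA (in 7.81% of promoters), the STAT palindrome TTCNNNGAA (8.30%), the C/EBP motif TTGCNNNAA (9.56%), the paired interferon response motif (3.44%) and the NF-kB consensus (8.46%). These are matches of letters and no measure of binding.

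The libraries held 21650747 UMIs (chow), 21471782 UMIs (3 days) and 16538895 UMIs (10 days). Barcodes with at least 1000 UMIs, at least 300 genes and at most 10% mitochondrial UMIs numbered 2767, 4061 and 3014, beside 3000 to 5000 cells that the labels give as typical. Cells of the chow library were deeper, with a median of 4552 UMIs beside 3051 and 2982 in the 3-day and 10-day libraries. Shares of cells with a UMI are therefore given also after thinning each cell to 1500 UMIs. Between 13 and 20 cell barcodes were shared by any pair of libraries, at most 0.723% of a library. Kupffer-like clusters, formed without any Ccl or Cxcl gene, held 2397 cells on chow, 3608 cells at 3 days and 2640 cells at 10 days, between 86.6% and 88.8% of each library. All 15 Kupffer markers were detected in them in each library, with a summed level of 39765 CPM (UMIs per 1000000 UMIs) on chow, 38696 at 3 days and 38112 at 10 days. Different clusters held most of the Kupffer-like cells of each library. On chow these were a cluster with no leading gene (1027 cells) and one led by Adap2os and C1qb (781 cells), at 3 days clusters led by Ttc39c (1466 cells) and Vcam1 (1293 cells), and at 10 days clusters led by Ltc4s and Klf4 (985 cells) and by Cebpb and Marco (887 cells). Levels are CPM of the summed Kupffer-like cells, from 3' end counting, which needs no scaling by transcript length.

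In Kupffer-like cells the 6 chemokines fell into 3 patterns. The monocyte chemoattractants were lower after 10 days of ethanol diet than on chow, the macrophage inflammatory proteins were higher at both times, and Ccl24, by far the most abundant, was higher at both times by less than 1.5 times. At 3 days against chow, 2 of the 6 genes were above a ratio of 1.5 (Ccl3 and Ccl4), where 6.45% of the 11339 genes with at least 20 UMIs were, and 1 was below 1/1.5 (Ccl12), where 5.05% of all genes were. At 10 days against chow, 1 gene was above 1.5 (Ccl4), against 6.84% of all genes, and 3 were below 1/1.5 (Ccl2, Ccl7 and Ccl12), against 6.44%. At 10 days against 3 days, 0 were above 1.5, against 5.55% of all genes, and Ccl2, Ccl7 and Ccl12 were below 1/1.5, against 6.02%. The median log2 ratio of the 6 was 0.17 at 3 days and -0.18 at 10 days over chow, beside 0.02 and 0.05 over all genes. The 3 comparisons share libraries.

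**Figure D1:**
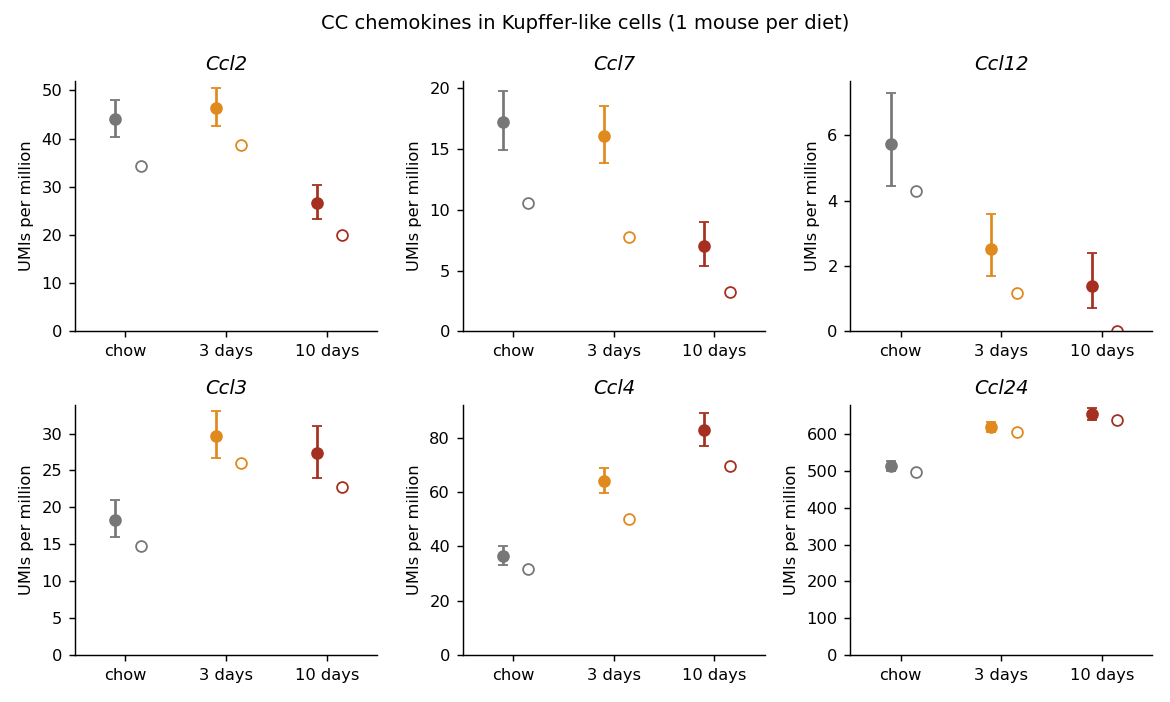
Level of each chemokine in Kupffer-like cells (CPM, y axes from 0) in the chow, 3-day and 10-day libraries. Filled points are sums over all Kupffer-like cells with 95% Poisson intervals, and open points leave out the 10 cells with the most UMIs of that gene. Ccl4 stood at 36.6 on chow, 64.1 at 3 days and 83.0 at 10 days, and Ccl12 at 5.74, 2.51 and 1.38.

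Ccl2, the principal Ccr2 ligand, stood at 44.0 CPM (interval 40.2 to 48.0, 506 UMIs) on chow, 46.4 CPM (42.6 to 50.4, 554 UMIs) at 3 days and 26.6 CPM (23.3 to 30.3, 232 UMIs) at 10 days. The chow and 3-day libraries overlapped within counting error, and the 10-day library was below both. The ratio of 10 days to chow was 0.605 (0.516 to 0.708). It no longer passed 1/1.5 when every Kupffer-like cell was given the same weight (0.713) or when only cells with at most 5% mitochondrial UMIs were kept (0.719). With every Kupffer-like cluster given the same weight it was 0.389, and 0.679 when the cluster led by Cxcl10 (below) was also left out. The 5% limit kept 1041 cells on chow, 1604 cells at 3 days and only 368 cells at 10 days, where the median mitochondrial share was 6.43% against 5.24% on chow, and its part in the result was not tested.

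Ccl7, a second Ccr2 ligand, had 17.2 CPM (14.9 to 19.8, 198 UMIs) on chow, 16.1 CPM (13.9 to 18.5, 192 UMIs) at 3 days and 7.0 CPM (5.35 to 8.99, 61 UMIs) at 10 days. Its ratio of 10 days to chow was 0.407 (0.300 to 0.544) and that of 3 days to chow 0.934 (0.762 to 1.15). The near equality at 3 days depended on which cells were counted and moved both ways. Without the cluster led by Cxcl10 (below) the 3-day ratio was 0.699, and without the 10 richest cells of each library it was 0.731. With at most 5% mitochondrial UMIs it was 1.22, and with every Kupffer-like cluster given the same weight it was 1.07. The 10-day ratio stayed below 1/1.5 over chow in all 14 alternatives, between 0.140 and 0.507. The ratio of 10 days to 3 days was 0.435 (0.321 to 0.583), and 0.725 without the Cxcl10 cluster.

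Ccl12, a Ccr2 ligand of the mouse, was the rarest, with 5.74 CPM (4.44 to 7.30, 66 UMIs) on chow, 2.51 CPM (1.70 to 3.59, 30 UMIs) at 3 days and 1.38 CPM (0.712 to 2.41, 12 UMIs) at 10 days. Both ethanol libraries were below chow with no overlap of the intervals. The ratios to chow were 0.438 (0.274 to 0.684) at 3 days and 0.240 (0.118 to 0.448) at 10 days, and 13 of the 13 alternatives that gave a 10-day ratio kept it below 1/1.5. With every Kupffer-like cluster given the same weight the 3-day ratio was 0.910, and 0.332 when the Cxcl10 cluster was also left out. The ratio of 10 days to 3 days, 0.548 (0.256 to 1.1), had an interval that includes 1. Within the 8 Kupffer-like clusters taken one by one, Ccl12 was lower at 10 days than on chow in 8, Ccl2 in 7 and Ccl7 in 6, in several of them with few or 0 UMIs. The clusters are parts of the same libraries, most of them uneven between diets, and do not repeat the comparison. Other genes were not counted by cluster in this way.

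Ccl3, a ligand of Ccr1, had 29.7 CPM (26.7 to 33.0, 355 UMIs) at 3 days and 27.3 CPM (24.0 to 31.0, 238 UMIs) at 10 days, against 18.3 CPM (16.0 to 21.0, 211 UMIs) on chow. Both ethanol libraries were above chow and overlapped each other. The ratio was 1.62 (1.36 to 1.93) at 3 days. At 10 days it was 1.49 (1.23 to 1.80), just under 1.5, and it passed 1.5 in 4 of 14 alternatives. With every Kupffer-like cluster given the same weight, so that the small Cxcl10 cluster counts as 1 of 8, the ratios were 1.03 at 3 days and 1.08 at 10 days. With the same weights but without that cluster they were 1.56 and 1.95.

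Ccl4, the other macrophage inflammatory protein, had 64.1 CPM (59.6 to 68.8, 765 UMIs) at 3 days and 83.0 CPM (77.0 to 89.2, 723 UMIs) at 10 days, against 36.6 CPM (33.2 to 40.3, 421 UMIs) on chow. The order chow, 3 days, 10 days was without overlap of the intervals. The ratio to chow was 1.75 (1.55 to 1.98) at 3 days and 2.27 (2.01 to 2.56) at 10 days. Without the Cxcl10 cluster the 3-day ratio was 1.46, under 1.5, while the 10-day ratio stayed between 2.00 and 2.57 in all 14 alternatives. With equal cluster weights the 3-day ratio was 2.63, and that of 10 days to 3 days was 0.864, the opposite direction to 1.29 from the sums. With those weights but without the Cxcl10 cluster the ratios to chow were 1.45 at 3 days and 1.61 at 10 days. Within single Kupffer-like clusters, which are no replicates, Ccl4 was higher at 10 days than on chow in 6 of 8, and Ccl3 in 7 of 8.

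Ccl24, the eotaxin, had 620 CPM (606 to 634, 7398 UMIs) at 3 days and 655 CPM (638 to 672, 5709 UMIs) at 10 days, against 514 CPM (501 to 527, 5908 UMIs) on chow. It was more than 7 times as abundant as any other member in each library. Its ratios of 1.21 (1.17 to 1.25) and 1.28 stayed under 1.5 in all 14 alternatives, within 1.08 to 1.32 over chow.

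The order of the members within a library differed between diets. On chow it was Ccl24, Ccl2, Ccl4, Ccl3, Ccl7 and Ccl12, with Ccl2 beside Ccl4 and Ccl3 beside Ccl7 overlapping in their intervals. At 3 days Ccl4 was above Ccl2, and Ccl3 above Ccl7, without overlap. At 10 days Ccl4 was above both Ccl3 and Ccl2, which overlapped, and Ccl7 and Ccl12 followed.

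Most Kupffer-like cells carried Ccl24 and few carried any other member. A Ccl24 UMI was found in 78.7% of them on chow, 74.4% at 3 days and 74.5% at 10 days. After thinning to 1500 UMIs these shares were 48.9%, 55.0% and 56.6%, so their order followed the depth of the libraries before thinning and the CPM after it. Ccl4 was found in 12.3%, 11.6% and 15.4% of cells, and in 4.34%, 6.53% and 9.05% after thinning. Ccl2 was found in 13% on chow, 9.23% at 3 days and 5.64% at 10 days, and in 4.73%, 5.22% and 3.07% after thinning. Ccl3 gave 6.76%, 7.43% and 6.52%, Ccl7 4.42%, 2.38% and 1.36%, and Ccl12 2.46%, 0.665% and 0.379% before thinning. After it Ccl3 gave 2.85%, 3.83% and 3.28%, Ccl7 1.53%, 1.46% and 0.664%, and Ccl12 0.876%, 0.304% and 0.208%. Cells under 1500 UMIs, left out by the thinning, numbered 114 on chow, 316 at 3 days and 232 at 10 days.

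The shares in cells that should lack the genes are set beside those of Kupffer-like cells, whose median depths were 4578, 3039 and 3050.5 UMIs. T and NK-like cells, with median depths of 3538, 2614.5 and 2448 UMIs, had a Ccl24 UMI in 12.0% of cells on chow, 7.78% at 3 days and 11.1% at 10 days. A Ccl2 UMI was found in 1 of 117 of them on chow, 2 of 90 at 3 days and 0 of 153 at 10 days. Ccl7 and Ccl12 gave 0 in all of them, which allows a share of up to 2.56% on chow, 3.33% at 3 days and 1.96% at 10 days. Those limits are set by the number of T and NK-like cells in each library. The Ccl12 shares of Kupffer-like cells in each library, and the Ccl7 shares at 3 days and 10 days, lay below them. With so few T and NK-like cells per library, these shares could not be set above the background. Endothelial-like cells, with median depths of 2896, 2312 and 2431.5 UMIs, had a Ccl3 UMI in 2.13%, 1.82% and 0% of cells, the last allowing up to 3.85%, and a Ccl4 UMI in 2.13%, 5.45% and 6.41%. The Kupffer-like shares of Ccl3 and Ccl4 were above these in each library.

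Barcodes with too few UMIs to be cells, where RNA from outside cells is read, carried the chemokines too. Those with 10 to 100 UMIs held Ccl24 at 417 CPM on chow, 474 at 3 days and 380 at 10 days. Ccl4 stood there at 60.0, 78.9 and 92.3 CPM, and Ccl7 at 26.1, 31.5 and 7.80 CPM. Ccl2 stood at 51.4, 49.8 and 26.7 CPM, and Ccl12 at 6.64, 4.81 and 1.95 CPM. Ccl4, Ccl7, Ccl2 and Ccl12 were thus at or above their Kupffer-like levels in each library. Ccl3 was above its Kupffer-like level on chow (18.6 CPM) and at 3 days (34.6 CPM) but not at 10 days (24.4 CPM). Ccl24 was below its Kupffer-like level in each library. The median over all genes of the Kupffer-like level divided by the level in these barcodes was 0.994 on chow, 1.02 at 3 days and 1.13 at 10 days. For the Kupffer markers Clec4f, Cd5l, Csf1r and Vsig4 that ratio was 0.939, 1.01, 1.15 and 1.36 on chow. It was 0.970, 1.01, 1.20 and 1.61 at 3 days and 1.15, 1.16, 1.46 and 1.91 at 10 days. The part of RNA from outside cells in the chemokine levels was not tested.

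Across cell classes, Kupffer-like cells held between 77.1% and 100% of the UMIs of each member, while they held 84.9% to 87.8% of all UMIs. The 77.1% was Ccl4 on chow. Ccl24 in Kupffer-like cells was 15.2-fold (9.22 to 27.2) its level in T and NK-like cells on chow, 24.8-fold (12.0 to 61.7) at 3 days and 14.9-fold (9.40 to 25.1) at 10 days. Against dendritic-like cells the same ratios were 1.45, 2.41 and 2.61. Ccl2 was 19.5-fold (3.49 to 774) higher than in T and NK-like cells on chow and 6.5-fold (1.79 to 53.8) at 3 days, each resting on 1 or 2 UMIs in those cells. Against endothelial-like cells it was 1.44-fold (0.612 to 4.44) on chow, 13.6-fold (2.43 to 538) at 3 days and 2.03-fold (0.686 to 9.91) at 10 days, on 5, 1 and 3 UMIs. Against dendritic-like cells it was 2.21-fold (1.22 to 4.45) on chow and 2.81-fold (1.20 to 8.69) at 3 days.

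Ccl4 was also abundant outside Kupffer-like cells. T and NK-like cells, a known source of Ccl4, held it at 78.8 CPM on chow (54.9 to 110, 35 UMIs), 104 CPM at 3 days (29 UMIs) and 68.5 CPM at 10 days (28 UMIs). Of these UMIs 19 on chow, 11 at 3 days and 8 at 10 days came from 1 cell, and without that cell of each library the levels were 36.2, 64.8 and 49.2 CPM. The Kupffer-like level was 0.465 times the level in T and NK-like cells on chow (0.329 to 0.676), 0.619 times at 3 days (0.427 to 0.931) and 1.21 times at 10 days (0.831 to 1.83). Without the richest T and NK-like cell of each library it was 1.01 times (0.616 to 1.79), 0.989 times (0.622 to 1.68) and 1.69 times (1.08 to 2.78), with intervals that include 1 on chow and at 3 days. Ccl3 in Kupffer-like cells was 1.02 times its T and NK-like level on chow and 1.01 times at 10 days, with intervals that include 1. In 1 plasmacytoid dendritic-like cell at 10 days 7 UMIs of Ccl4 were found.

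Single cells set the dendritic-like values. In 62 dendritic-like cells on chow Ccl4 stood at 83.4 CPM (46 UMIs), but 34 of these UMIs sat in 1 cell, which also had 7 UMIs of Ccl3, 2 of Ccl7 and 1 of Ccl2. Ccl24 stood at 354 CPM there (195 UMIs), of which 133 UMIs sat in another cell with no UMI of the other 5 members. Without those cells the chow values were 22.5 CPM for Ccl4 and 115 CPM for Ccl24.

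**Figure D2:**
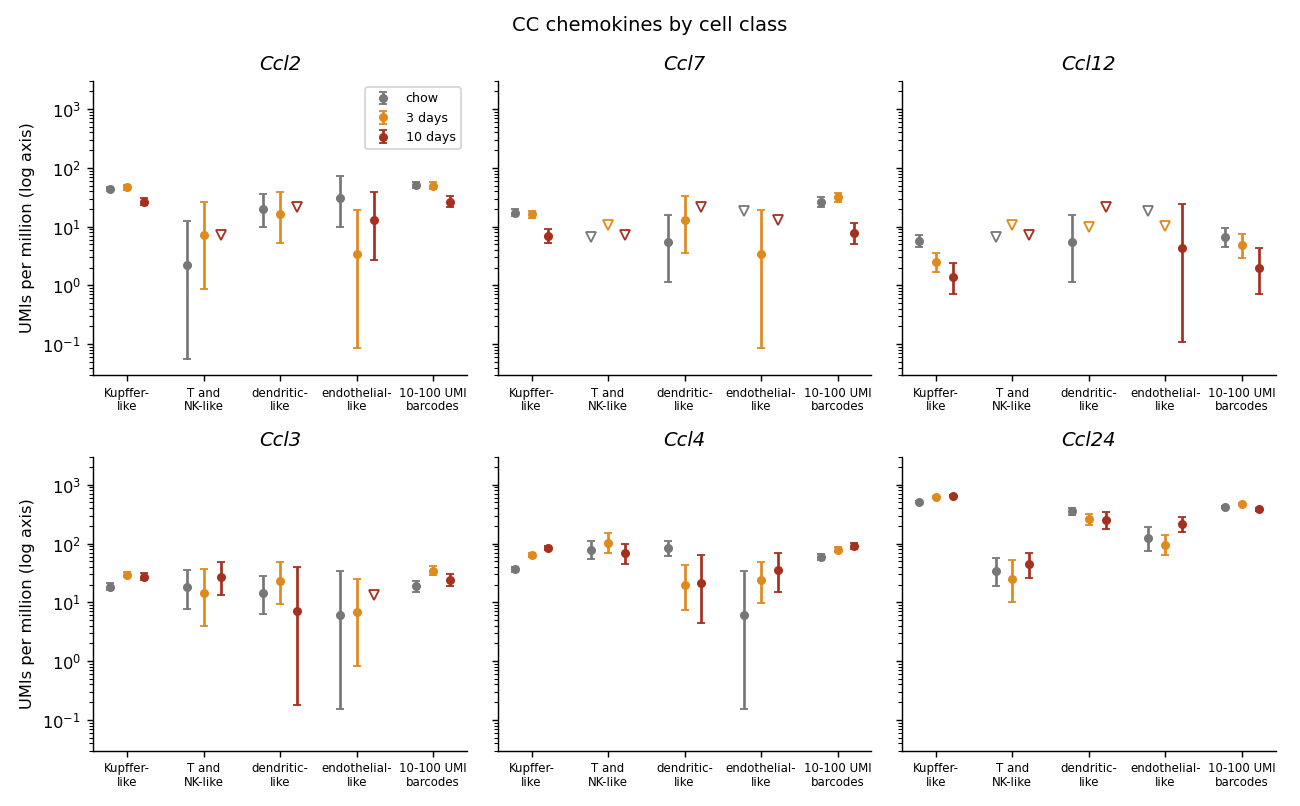
Level of each chemokine (CPM, log axis) in 4 cell classes and in barcodes with 10 to 100 UMIs, for the chow, 3-day and 10-day libraries. Points carry 95% Poisson intervals, and open triangles mark classes with 0 UMIs at the level 3 counts would give. Ccl24 in Kupffer-like cells, at 514 to 655, stood above its level in the other cell classes, while Ccl4 in T and NK-like cells stood above Kupffer-like cells on chow (78.8 and 36.6) and at 3 days (104 and 64.1) but not at 10 days (68.5 and 83.0). Without the richest T and NK-like cell of each library, not drawn, the T and NK-like values were 36.2, 64.8 and 49.2.

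The level of Ccr2 was lower in Kupffer-like cells than in dendritic-like and in T and NK-like cells of each library. Ccr2, the receptor of Ccl2, Ccl7 and Ccl12, had 4.43, 10.8 and 10.1 CPM in Kupffer-like cells on chow, at 3 days and at 10 days. In dendritic-like cells it had 283, 390 and 315 CPM, and in T and NK-like cells 212, 232 and 184 CPM. Ccr2 entered the clustering and was a leading gene of the dendritic-like cluster. Monocyte markers, Ccr2 among them, summed there to 2924, 2450 and 1991 CPM, against 547, 511 and 490 CPM in Kupffer-like cells. Whether the dendritic-like class holds monocytes was not tested. Ccr3, the receptor of Ccl24, had 6.35, 6.53 and 3.44 CPM in Kupffer-like cells and 0 UMIs in the T and NK-like cells of all 3 libraries. Ccr1 stood at 1.04, 0.419 and 1.03 CPM in Kupffer-like cells.

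The UMIs of each chemokine sat in fewer Kupffer-like cells than depth alone would give, by this measure Ccl7 most and Ccl24 least. If UMIs were spread over cells in proportion to depth, Ccl7 would have been found in 188, 186 and 60.2 cells of the chow, 3-day and 10-day libraries. It was found in 106, 86 and 36 cells, which is 0.562, 0.462 and 0.598 of that number. Over all genes with at least 50 UMIs the median of this ratio was 0.988 on chow, 0.992 at 3 days and 0.987 at 10 days. The ratio also depends on a gene's total of UMIs, and those genes were not matched to the members in it. Only 0.141% of genes had a lower ratio than Ccl7 on chow, 0.119% at 3 days and 0.310% at 10 days. Ccl2 gave 0.698, 0.658 and 0.677, and Ccl4 0.777, 0.618 and 0.658. Ccl3 gave 0.809, 0.800 and 0.763, Ccl12 0.909, 0.804 and 0.836, and Ccl24 0.917, 0.907 and 0.894. All 18 values lay below the 5th percentile of genes (0.932, 0.936 and 0.928), although Ccl12 at 3 days and 10 days had fewer than those 50 UMIs.

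For Ccl7 a small number of cells carried much of the total, while Ccl24 was spread over many. The numbers of cells below also depend on each gene's total. That was 198, 192 and 61 UMIs for Ccl7 and 5908, 7398 and 5709 UMIs for Ccl24. Of the Ccl7 UMIs 50% sat in 17 cells on chow, 9 cells at 3 days and 9 cells at 10 days, and the largest counts in 1 cell were 22, 21 and 9. For Ccl2 the same share sat in 66, 74 and 35 cells, with a largest count of 39 in 1 chow cell. For Ccl4 it sat in 85, 74 and 83 cells, with 45 UMIs in 1 cell at 3 days. For Ccl3 it sat in 57, 91 and 53 cells. For Ccl24 it sat in 431, 628 and 474 cells, with 51 UMIs in 1 chow cell. Ccl12 on chow had 66 UMIs in 59 cells, of which 54 had exactly 1. Among cells with a Ccl2 UMI, 76.6% on chow had exactly 1, and 9 cells with 5 or more held 21.5% of its UMIs. Of the cells with the 10 largest counts of each gene, 0 to 2 of 10 were among the 4% with the highest doublet scores.

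**Figure D3:**
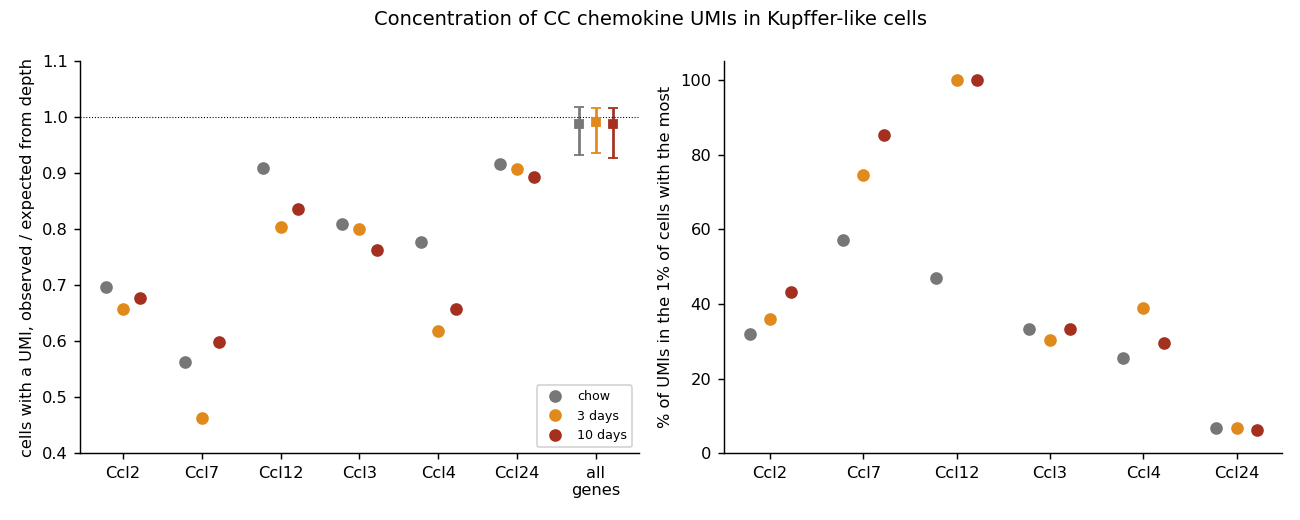
Left, the number of Kupffer-like cells with a UMI divided by the number that UMIs spread in proportion to depth would give, for each chemokine and library, with the median and the 5th to 95th percentiles of all genes. Right, the percent of each chemokine's UMIs held by the 1% of cells with the most, which also depends on the gene's total of UMIs. Ccl7 lies lowest on the left at 0.462 to 0.598 and Ccl24 lowest on the right at 6.36% to 6.86%; Ccl12 at 3 days and 10 days reaches 100% because fewer than 1% of cells carried it.

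One small Kupffer-like cluster, led by Cxcl10 and Cxcl9, held more of these UMIs than its share of cells. The cluster was formed without Ccl and Cxcl genes and was singled out after its leading genes were seen. Those leading genes also included Ccl7, Ccl4, Cxcl2, Gbp5 and Cd83. Higher Ccl7 and Ccl4 in it thus describe the cluster and are no separate result. It had 28 cells on chow, 52 at 3 days and 32 at 10 days, which is 1.17%, 1.44% and 1.21% of the Kupffer-like cells, and its median doublet score was below that of the other Kupffer-like cells in each library. It held 1.16%, 1.83% and 1.37% of the Kupffer-like UMIs of the chow, 3-day and 10-day libraries. Of the Ccl7 UMIs it held 22.2% on chow, 42.2% at 3 days and 3.28% at 10 days. The shares were 4.51%, 21.0% and 8.71% for Ccl4 and 12.3%, 8.45% and 5.46% for Ccl3. For Ccl2 they were 14.0% (71 UMIs, 39 of them in 1 cell), 11.9% and 5.60%. For Ccl12 they were 4.55%, 30% and 16.7%, on 3, 9 and 2 UMIs, and for Ccl24 2.23%, 2.51% and 1.72%. Barcodes rich in globin UMIs were set apart, and 7, 16 and 6 of them had joined this cluster. With them it had 35, 68 and 38 cells and held 22.1%, 42.2% and 3.28% of the Ccl7 UMIs.

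Within the cluster Ccl7 stood at 330 CPM on chow, 371 CPM at 3 days and 16.7 CPM (2 UMIs) at 10 days, against 13.5, 9.47 and 6.86 CPM in the other Kupffer-like cells. The ratios were 24.3 (17.0 to 34.2), 39.2 (29.1 to 52.6) and 2.44 (0.289 to 9.21), the last with an interval that includes 1. The cluster's Ccl7 UMIs sat in 25% of its cells on chow and 23.1% at 3 days, a clumping that these intervals leave out. Ccl2 stood at 532, 302 and 109 CPM in the cluster and 38.3, 41.6 and 25.5 CPM outside it. Ccl2 was thus higher in the cluster in each library, by 13.9, 7.26 and 4.27 times. Of its 71 cluster UMIs on chow, 39 came from 1 cell, so the chow level and ratio rested largely on that cell. Ccl4 showed another order over the diets, with 142, 737 and 527 CPM in the cluster and 35.4, 51.5 and 76.8 CPM outside it. Of its 161 cluster UMIs at 3 days, 45 came from 1 cell. Ccl3 stood at 195, 137 and 109 CPM in the cluster and 16.3, 27.7 and 26.2 CPM outside it. Ccl12 had 3, 9 and 2 UMIs in the cluster, 4.06 (0.815 to 12.4), 23.0 (9.28 to 52.4) and 14.4 (1.53 to 67.5) times its level in the other cells. Ccl24 was 1.95, 1.38 and 1.26 times its level in the other cells.

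The cluster did not hold most of the positive cells. Ccl7 was found in 25% of its cells on chow, 23.1% at 3 days and 6.25% at 10 days, against 4.18%, 2.08% and 1.30% of the far more numerous other Kupffer-like cells. Outside it, Ccl7 still had a ratio of 10 days to chow of 0.507, and Ccl4 one of 2.17. What follows is a description only, since genes other than Ccl and Cxcl entered the clustering. Of the measured NF-kB targets and early inflammatory genes, 28 of 28 were more than 1.5 times higher in the cluster than outside it. Their median ratio was 3.76. Among the 28 are Cxcl10, by which the cluster was picked, and Cd83, another of its leading genes. Of the 7513 genes with a mean of at least 10 CPM, 7.13% were above 1.5 in the cluster and 16.1% below 1/1.5. Cd83, an activation marker, stood at 478 CPM in the cluster and 47.4 CPM outside it. Of the interferon response genes 13 of 27 were above 1.5 and 0 below 1/1.5. The interferon list also holds the leading genes Cxcl10, Cxcl9 and Gbp5. Of the immediate-early genes 7 of 21 were above and 4 below, and of the genes of the IL-4 and STAT6 program 1 of 10 was above and 1 below.

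**Figure D4:**
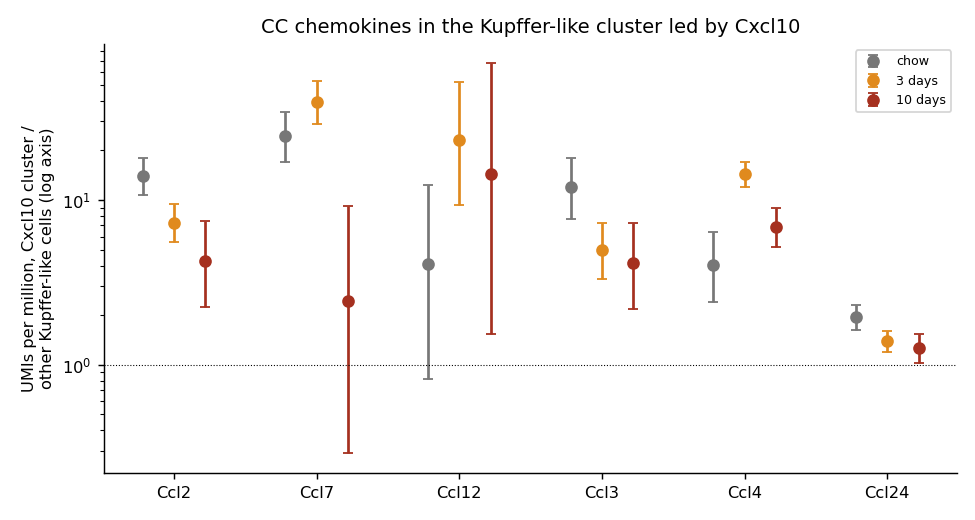
Level of each chemokine in the Kupffer-like cluster led by Cxcl10 divided by its level in the other Kupffer-like cells (log axis), by library, with 95% counting intervals. The intervals leave out the spread between cells. Ccl7 lies at 24.3 on chow and 39.2 at 3 days but 2.44 at 10 days, and Ccl24 lies nearest to 1 in each library. Both Ccl7 and Ccl4 were among the leading genes seen when the cluster was singled out.

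The same cells tended to carry several of the 5 rarer chemokines. At least 1 of Ccl2, Ccl7, Ccl12, Ccl3 and Ccl4 was found in 29.5% of Kupffer-like cells on chow, 24.6% at 3 days and 23.8% at 10 days. After thinning to 1500 UMIs these shares were 12.3%, 14.7% and 14.5%, so the order of the libraries differed from that before thinning. At least 3 of the 5 were found in 47, 41 and 21 cells, of which 7, 11 and 4 belonged to the Cxcl10 cluster. After thinning such cells numbered 9 of 2283, 13 of 3292 and 4 of 2408. In all 30 combinations of a pair of these 5 with a library, more cells had both than their depths alone would give, by 1.28 to 6.56 times. The expected number takes account of depth but not of the clusters. Pairs of other genes were not counted, so whether this is particular to the chemokines was not tested. Some of these rest on few cells, as Ccl12 with Ccl3 or with Ccl7 at 10 days, each on 1 cell. Without the Cxcl10 cluster 29 of the 30 were above 1, and Ccl12 with Ccl3 at 10 days was found in 0 cells.

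Ccl2 and Ccl7 were found together in 48 cells on chow, where depth alone gave 16.3 (2.95 times). The counts were 34 against 9.37 (3.63 times) at 3 days and 16 against 2.44 (6.56 times) at 10 days. Of the Ccl7-positive cells 45.3%, 39.5% and 44.4% also had Ccl2. Ccl3 and Ccl4 were found together in 42 cells on chow, 68 at 3 days and 60 at 10 days, which is 1.78, 1.87 and 1.94 times the number from depth. Without the Cxcl10 cluster the Ccl2 and Ccl7 ratios were 2.86, 3.21 and 6.74, and those of Ccl3 and Ccl4 1.72, 1.78 and 1.90. Pairs with Ccl24 are not described in this way, because a gene found in most cells leaves the ratio little room above 1.

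**Figure D5:**
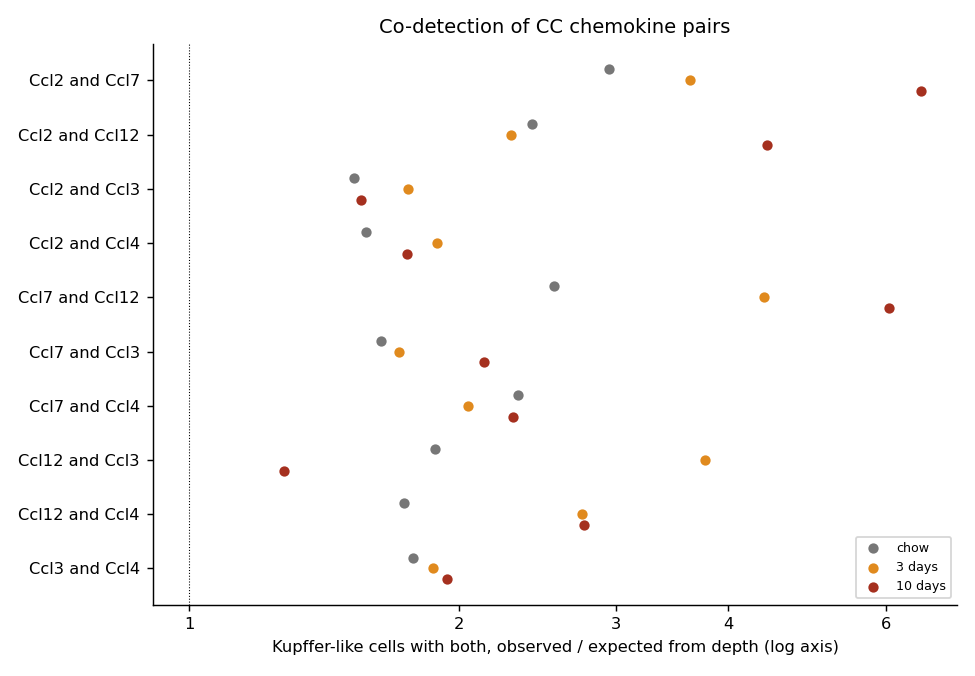
Kupffer-like cells with a UMI of both chemokines of a pair, divided by the number expected from the depth of the cells (log axis), for the 10 pairs of the 5 rarer chemokines in each library. The pair Ccl2 and Ccl7 lies at 2.95 to 6.56, and Ccl3 and Ccl4 at 1.78 to 1.94.

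Correlations of log-normalised counts over the Kupffer-like cells of each library (2397, 3608 and 2640 cells), which share depth and free RNA, ranked the same partners first among 9379 genes. All were weak. For Ccl2 and Ccl7, each was the nearest gene of the other, with r of 0.26 on chow, 0.27 at 3 days and 0.29 at 10 days. The next genes for Ccl2 were Ccl4, Egr1, Cxcl2 and Cxcl10, and for Ccl7 Ccl4, Cxcl2, Socs1 and Ccl3. Ccl3 and Ccl4 were each other's nearest, with r of 0.14, 0.13 and 0.20, and both were followed by Il1b among others (Ccl3 with Il1b, Nfkbiz, Fth1 and Cxcl2, Ccl4 with Ccl2, Ccl7, Dusp1 and Il1b). Ccl24 had a different set, Apoc1, Plac8, Tyrobp, Fcna and Ifi27l2a, with r between 0.0882 and 0.158. Ccl12 was in fewer than 1% of cells at 3 days and 10 days and was not ranked.

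Gene groups that are known to be switched on with these chemokines differed from them in direction in part. Of 21 immediate-early genes with a mean of at least 10 CPM, the ratio to chow was above 1.5 for 10 after 3 days and for 11 after 10 days, and for 0 below 1/1.5, beside 3.31% and 3.93% of the 7513 genes of that level above 1.5. Klf4, a transcription factor of macrophages, had 59.0 CPM at 3 days and 103 CPM at 10 days, against 23.8 CPM on chow, and Nr4a1 had 52.6 and 89.5 CPM against 30.4 CPM. Egr1 had 52.6 and 28.1 CPM against 18.6 CPM, and Rhob 315 and 536 CPM against 213 CPM. The median log2 ratio of the group was 0.58 at 3 days and 0.57 at 10 days, beside 0.04 and 0.07 over the 7513 genes. Of 28 measured NF-kB targets and early inflammatory genes, only Il6 and Cd83 were above 1.5 over chow at either time, and 0 were below 1/1.5. The cytokine Il6 had 13.6 and 18.7 CPM at 3 days and 10 days, against 8.09 CPM on chow.

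Of 27 measured interferon response genes, 9 were below 1/1.5 at 10 days over chow and 1 was above 1.5 (Ifi205, 1.70), and at 3 days 2 were below and 0 above, beside 2.26% and 1.26% of genes below. Isg15 had 64.8 CPM at 3 days and 36.3 CPM at 10 days, against 74.0 CPM on chow. The antiviral regulator Irf7 had 393 and 271 CPM against 473 CPM, and the guanylate-binding protein gene Gbp2 had 28.9 and 33.2 CPM against 56.3 CPM. Ccl24 is known as a product of the IL-4 and STAT6 program. Of 10 measured genes of that program, 4 were above 1.5 over chow and 1 below 1/1.5 at 3 days. Of the 7513 genes 3.31% and 1.26% were. At 10 days 2 were above and 0 below, beside 3.93% and 2.26% of genes. Klf4, named above with the immediate-early genes, is on both lists and was above 1.5 at both times. The scavenger receptor gene Cd163 had 1213 CPM at 3 days and 599 CPM at 10 days, against 552 CPM on chow, and Tgm2 had 179 and 435 CPM against 375 CPM.

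Of 14 other CC chemokine genes, 3 averaged at least 10 CPM in Kupffer-like cells. Ccl9, a Ccr1 ligand, had 84.8 CPM at 3 days and 10.4 CPM at 10 days, against 9.39 CPM on chow, a ratio of 9.04 at 3 days and 1.11 at 10 days. Ccl6 had 1889 and 1200 CPM against 905 CPM, above Ccl24 in each library. Ccl5 had 29.7 and 43.4 CPM against 40.1 CPM.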

How the data were processed

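The authors deposited raw UMI counts per gene and barcode, 1 library per mouse; they were made with Cell Ranger 2.2.0 on GRCm38 (mm10), per the submitters' processing notes, from 10x Chromium 3' libraries, per the labels' protocols. No further processing by the authors is given in the sources used here.

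From these counts, barcodes with at least 1000 UMIs and 300 genes and at most 10% mitochondrial UMIs were kept. Cells of the 3 libraries were clustered together (scanpy 1.11.5, igraph 0.11.9, Python 3.11.15; 2000 variable genes without Ccl and Cxcl genes, 30 components, 15 neighbours, Leiden resolution 0.6, no batch correction) and clusters named by marker lists. Barcodes with at least 0.5% globin UMIs (9, 17 and 6) were set apart, a choice made after seeing that 7, 16 and 6 of them had joined the cluster led by Cxcl10, and 2 mixed clusters (Kupffer with T cell or neutrophil markers) were left out. Scrublet's automatic limit marked 0 cells in each library, so it did not work and doublets were kept. CPM are summed counts over summed UMIs with exact Poisson intervals, ratios have exact conditional binomial intervals, and shares allow for 3 counts where 0 were seen. Thinning used 1 seeded draw per cell. A gene was called past a ratio of 1.5 or 1/1.5, with at least 20 UMIs in both libraries together. With 1 mouse per diet no test between diets was possible.

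Named genes were the 6 members, the 5 most similar genes to each (lowest r of the 3 libraries, genes in at least 1% of cells) and examples from the up to 4 measured genes of each list (mean of at least 10 CPM) with the largest absolute log2 ratio of either ethanol library over chow; Ccr1, Ccr2 and Ccr3 were described by cell class. Members and lists were chosen with earlier results of these data known. Of the 28692 gene IDs, 28339 matched GENCODE vM21. The ratio, interval and spread calculations were tested on simulated data. One receptor gene of the lists is not reported here.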

Additional observations from a re-analysis of the deposited data

Results flagged for a closer look

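Ccl4 and Ccl24 in dendritic-like cells ran opposite to Kupffer-like cells. The ratio of 3 days to chow in dendritic-like cells was 0.238 for Ccl4 (0.0829 to 0.558) and 0.729 for Ccl24 (0.553 to 0.952), and that of 10 days to chow was 0.258 for Ccl4 (0.0513 to 0.802), where the Kupffer-like ratios were 1.75, 1.21 and 2.27. The differences between the classes were not tested. Without the richest cell of each library, 34 of 46 Ccl4 UMIs and 133 of 195 Ccl24 UMIs on chow, the 3-day ratio was 0.60 (0.141 to 1.98) for Ccl4 and 2.03 (1.41 to 2.91) for Ccl24, and the 10-day ratio was 0.654 (0.0711 to 2.94) for Ccl4, so the Ccl24 direction turned and the Ccl4 intervals include 1.

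Barcodes with 10 to 100 UMIs, which entered no comparison of cells, also differed between diets. Their ratio of 3 days to chow was 1.86 (1.41 to 2.47) for Ccl3, 1.32 (1.12 to 1.55) for Ccl4 and 1.14 (1.07 to 1.21) for Ccl24, and the Ccl4 ratio of 10 days to chow was 1.54 (1.30 to 1.82). For these genes and times the direction was that of the Kupffer-like cells. The ratio of 10 days to chow in these barcodes was 0.519 (0.398 to 0.670) for Ccl2, 0.299 (0.184 to 0.466) for Ccl7 and 0.294 (0.0999 to 0.717) for Ccl12, also below 1 as in Kupffer-like cells. The direction over chow differed in 3 places. The 3-day ratio was 0.969 (0.800 to 1.17) for Ccl2, against 1.05 in Kupffer-like cells, and 1.21 (0.933 to 1.56) for Ccl7, against 0.934 in Kupffer-like cells. The Ccl24 ratio of 10 days to chow in these barcodes was 0.913 (0.848 to 0.983), against 1.28 in Kupffer-like cells. These differences were not tested.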

How the results depend on the processing

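No paired analysis was possible because each diet had 1 library. Of the recomputed chemokine ratios 221 stayed within the counting interval of the reported value and 29 did not, and none past 1.5 or 1/1.5 turned direction. With at most 5% mitochondrial UMIs the ratios of 3 days to chow were 1.22 (Ccl7), 2.17 (Ccl3) and 2.11 (Ccl4), those of 10 days to chow were 0.719 (Ccl2), 0.266 (Ccl7), 1.85 (Ccl3), 2.57 (Ccl4) and 1.22 (Ccl24), and those of 10 days to 3 days were 0.704 (Ccl2), 0.219 (Ccl7) and 0.995 (Ccl24). Only 368 cells were left at 10 days, and the cause of the shifts was not tested. Without the Cxcl10 cluster, an alternative chosen after seeing the data, the ratios were 0.699 (Ccl7, 3 days to chow), 0.725 (Ccl7, 10 days to 3 days), 1.46 (Ccl4, 3 days to chow) and 1.49 (Ccl4, 10 days to 3 days). With every Kupffer-like cluster given the same weight, also chosen after seeing the data, those of 3 days to chow were 0.749 (Ccl2), 0.910 (Ccl12), 1.03 (Ccl3), 2.63 (Ccl4) and 1.08 (Ccl24), those of 10 days to chow 0.389 (Ccl2), 0.140 (Ccl7), 1.08 (Ccl3) and 1.18 (Ccl24), and those of 10 days to 3 days 0.131 (Ccl7) and 0.864 (Ccl4). Without the 10 richest cells Ccl7 gave 0.731 (3 days to chow), with equal cell weights Ccl2 gave 0.713 (10 days to chow), and with all cells Ccl4 gave 2.00 (10 days to chow). Without the 10 richest cells Ccl12 had 0 UMIs left at 10 days, so no 10-day ratio was computed, and with equal weights its ratio of 10 days to 3 days was 0.710, not past 1/1.5. All 66 recomputed counts of genes past 1.5 stayed within 1.5 times the main count. Keeping the red-cell barcodes or adding the mixed clusters, both added after seeing the data, were among these alternatives. The depth limits Ccl12 most, with 12 UMIs at 10 days.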
